A study of Mus musculus with 4 samples.

Results

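TRPS1 and the GATA and FOG factors are transcription regulators that meet on the same DNA motif, and 7 of their genes were followed here in mouse Leydig cells that received a small interfering RNA (siRNA) against Trps1. The members were Trps1, Gata1, Gata2, Gata4, Gata6, Zfpm1 and Zfpm2, taken by gene symbol from a count table of 55812 features. All 7 were found, and all 7 were among the 14701 genes with enough reads to be tested. The cells were primary Leydig cells, labelled as coming from mice of 6 months. There were 2 samples with Negative siRNA, called controls, and 2 with Trps1 siRNA, called treated, and nothing in the labels sets the groups apart other than the siRNA. The sources used here do not give strain, siRNA sequence, dose or time after treatment. No label ties a sample to its own culture or animal. The p-values therefore reflect the spread between these 4 samples and no more, and that spread may be technical. The study asked which genes change when Trps1 is lowered. In bulk RNA, fewer cells of a type and less RNA per cell cannot be told apart.

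As background, GATA factors are zinc finger proteins that bind the bases GATA in promoters and enhancers and mostly activate transcription. FOG proteins, encoded by Zfpm1 (FOG-1) and Zfpm2 (FOG-2), do not recognise that motif themselves. They attach to the N-terminal finger of a GATA factor and bring in corepressors or coactivators. TRPS1 binds the GATA motif too, but represses transcription. GATA4 and GATA6 are the GATA factors best known from steroid-producing cells, where GATA4 is needed for the formation and function of Leydig cells. GATA1 and GATA2 are best known from blood cells, and GATA1 is also made in Sertoli cells of the testis.

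The feature that puts Trps1 beside the Gata genes is the GATA-type zinc finger, a loop held by 4 cysteines, so its coding sequence is shown for the genes compared most often below. The pattern of 4 cysteines was found once in the coding sequence of Trps1, at codons 900 to 924 of 1285, and 2 times each in Gata1, Gata2, Gata4 and Gata6. It was found 0 times in Zfpm1 and Zfpm2. The sequences are from GENCODE M21 transcripts on GRCm38, 5′ to 3′, with the cysteine codons in capitals, and for the Gata genes the C-terminal finger is given. Trps1 lies at chr15:50664711-50664785 (minus strand, exon 5 of the transcript), Gata4 at chr14:63203683-63203757 (minus strand, exon 4), Gata1 at chrX:7960607-7960681 (minus strand, exon 5) and Gata2 at chr6:88204610-88204684 (plus strand, exon 5).
Trps1: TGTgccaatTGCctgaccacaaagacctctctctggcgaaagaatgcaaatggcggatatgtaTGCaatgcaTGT
Gata4: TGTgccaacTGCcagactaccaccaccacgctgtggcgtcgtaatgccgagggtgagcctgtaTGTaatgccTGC
Gata1: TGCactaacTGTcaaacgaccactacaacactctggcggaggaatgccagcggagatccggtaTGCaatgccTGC
Gata2: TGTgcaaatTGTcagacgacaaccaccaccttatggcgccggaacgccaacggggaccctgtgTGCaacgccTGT

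Over the 25 codons, the Trps1 finger encoded the same residue as the C-terminal finger at 19 codons for Gata2, 18 each for Gata4 and Gata6 and 17 for Gata1. With the N-terminal fingers, which contact FOG proteins, it shared 14 residues for Gata1 and Gata2 and 13 for Gata4 and Gata6. The Trps1 finger was thus closer to the C-terminal, DNA-binding finger in all 4 Gata genes. Between Gata genes the C-terminal fingers shared 21 to 24 of 25 residues, the highest number being that of Gata4 and Gata6.

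The libraries held 17844125 to 25852898 counted reads. The labelled cell type was checked against its markers: all 12 adult Leydig markers were tested, and they summed to 9299 and 9481 CPM (counts scaled to the size of each library) with Negative siRNA and 11310 and 11450 CPM in the treated samples. Most of the control sum was Vcam1, Cyp11a1 and Ptgds, at means of 3450, 2510 and 1630 CPM. The rise of the sum was mostly Cyp11a1, to a mean of 3540 CPM, and Hsd3b1, from 416 to 1110 CPM. Star, Insl3, Ptgds, Vcam1 and Hsd11b1 were not called changed in the test described below. Other testis cells contributed. The 15 macrophage markers summed to 3201 and 3120 CPM in the controls and 2709 and 2141 CPM in the treated samples. The 10 Sertoli markers summed to 3759 and 3632 CPM in the controls and 3868 and 3653 CPM in the treated samples, most of it Clu, a secreted chaperone made in many cells, at 2700 to 3030 CPM, and Ctsl, at 767 to 905 CPM. Wt1 stood at 5.32 to 6.48 CPM and Aard at 14.6 to 16.8 CPM, while Fshr had 0 reads in all 4 samples, and Amh, Dhh and Rhox5 did not reach the expression filter. The 7 erythroid markers summed to at most 0.742 CPM, and the mast cell proteases Cpa3, Mcpt4, Cma1 and Tpsb2 each stood at 1.29 CPM or less in every sample.

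In the control samples the 7 genes covered a wide range, with Gata4 far above the rest. Levels between genes were compared per length, as CPM per 1000 bases of exon. Gata4 stood at 106 ± 1.31 CPM per 1000 bases (SD, n = 2), above 96.6% of tested genes. Zfpm1 followed at 20.1 ± 0.162 and Gata1 at 6.75 ± 0.489 CPM per 1000 bases. Trps1 was in the middle, at 3.0 ± 0.219 CPM per 1000 bases, above 40.4% of tested genes. Below it were Gata6 at 1.84 ± 0.0369, Zfpm2 at 0.717 ± 0.0182 and Gata2 at 0.136 ± 0.0289 CPM per 1000 bases, the last above 2.61% of tested genes. No neighbours in this order overlapped between their control samples. With Trps1 siRNA the order was the same but for Trps1 and Gata6, which changed places and overlapped, at 2.01 ± 0.349 and 2.35 ± 0.152 CPM per 1000 bases (SD, n = 2). Merged exons lengthen a gene whose transcripts differ, and with the longest transcript as the length the order in each group was the same, without that overlap.

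**Figure D1:**
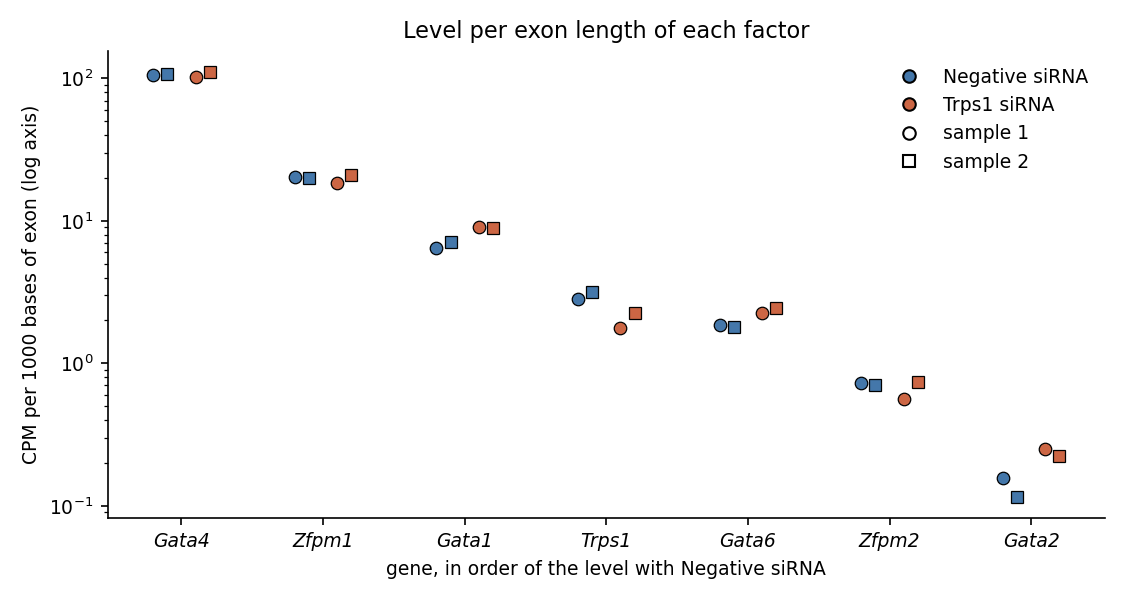
Level of each factor in CPM per 1000 bases of exon on a log axis, in every sample, with genes in the order of their control level. Gata4 lies near 106 and Gata2 at 0.136 in the control samples, and Trps1 moves from above to about the level of Gata6.

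Of the 7 genes, 2 changed in edgeR's quasi-likelihood test at a Benjamini-Hochberg adjusted p under 0.05 over all tested genes, and 11.2% of all tested genes did. Trps1 was called lower, as were 6.00% of tested genes, and Gata1 was called higher, as were 5.24%. Trps1 was the target of the siRNA, so its call is a check of the treatment. The groups were fully apart in 4 of the 7, and in 52.2% of tested genes. The median log2 fold change of the 7 genes was 0.02, and that of all tested genes was 0.00. Without sample 2 of Trps1 siRNA, 871 genes were called in place of 1652, and without it Gata1 was not among them.

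Trps1 (ENSMUSG00000038679, chromosome 15, 50654752 to 50890463, minus strand, GRCm38) had 765 and 1080 reads in the controls and 420 and 655 reads in the treated samples. In CPM the values were 38.1 and 42.2 in the controls and 23.5 and 30.1 in the treated samples. Both treated samples lay below both controls, sample 1 further than sample 2. The fold change was 0.671, with a 95% interval of 0.581 to 0.775, and the log2 fold change was -0.58 ± 0.10 (standard error; edgeR adjusted p = 3.51e-04). The treated cells thus kept 67.1% of the control level of Trps1. The authors' deposited table of 780 genes holds Trps1 with a log2 fold change of -0.58 and an adjusted p of 0.0297, and none of the other 6 members. The 25 bases that Trps1 exons share with the microRNA gene Mir1907 on the same strand are a small part of its 13380 exon bases.

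Gata4, the main GATA factor of the adult Leydig cell, was nearly level between the groups. Gata4 (ENSMUSG00000021944, chromosome 14, 63198922 to 63271692, minus strand) had 410 and 418 CPM in the controls and 404 and 435 CPM in the treated samples. The treated samples enclosed the controls. The fold change was 1.01, with a 95% interval of 0.928 to 1.1 (log2 fold change 0.02 ± 0.06, edgeR adjusted p = 0.901). Gata4 had the most reads of the 7 genes, 7204 to 10691 per sample, and the narrowest interval.

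Gata6, which overlaps in function with Gata4 in steroid-producing cells, had higher values with Trps1 siRNA but missed the threshold. It passed in 1 of 12 alternative fits, the one with the replicate number as a block. Gata6 (ENSMUSG00000005836, plus strand) had 12.1 and 11.8 CPM in the controls and 14.6 and 16 CPM in the treated samples, from 244 to 347 reads. Both treated samples lay above both controls. The fold change was 1.28, with an unadjusted 95% interval of 1.07 to 1.53 (log2 fold change 0.35 ± 0.13), and edgeR's p was 0.0091 before and 0.0694 after adjustment. Gata6 shares 93 exon bases with a gene on the opposite strand, 1010001N08Rik, and the sources used here do not give the strand setting of the counting.

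**Figure D2:**
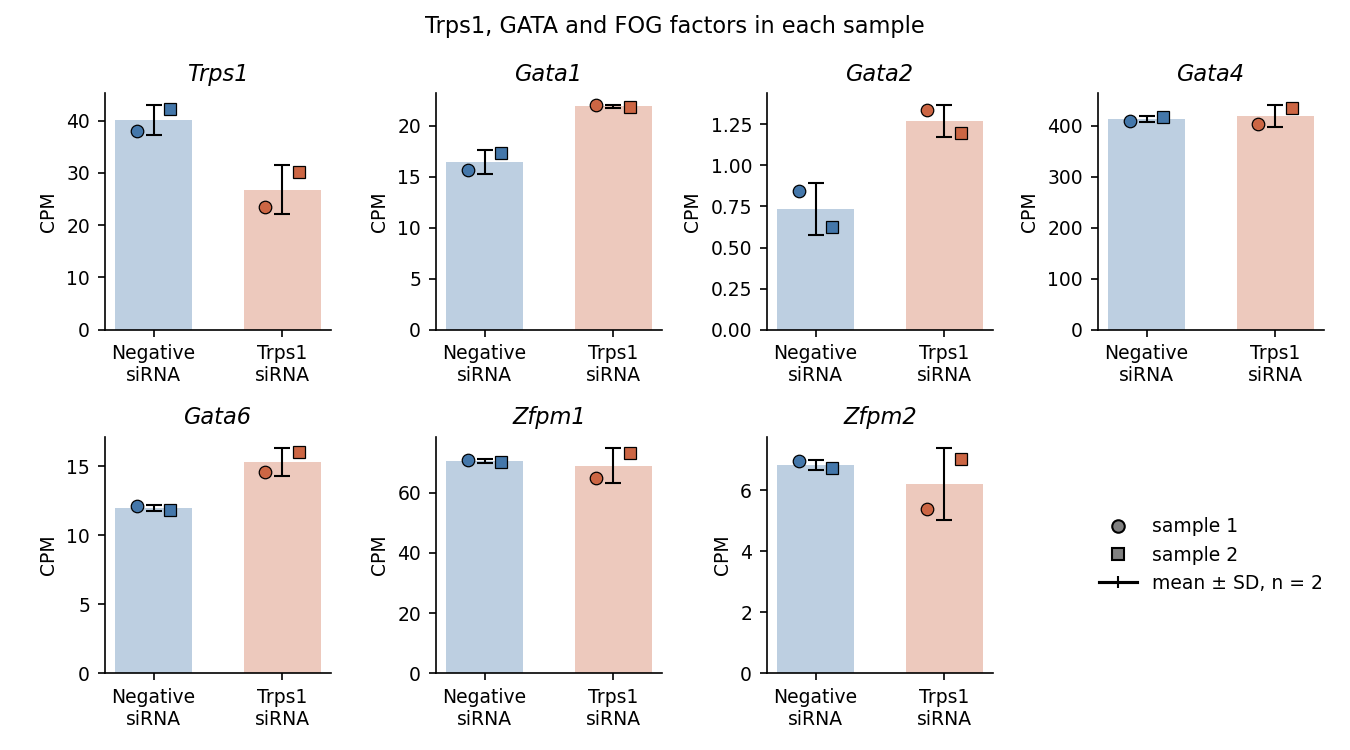
CPM of each of the 7 genes, with bars for the mean of 2 samples, error bars for the SD, circles for sample 1 and squares for sample 2. Trps1 falls from 40.1 to 26.8 CPM and Gata1 rises from 16.5 to 21.9 CPM, while the groups of Gata4, Zfpm1 and Zfpm2 overlap.

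Gata1, the blood and Sertoli cell factor, rose, with a fold change of 1.33. Gata1 (ENSMUSG00000031162, chromosome X, 7959260 to 7978071, minus strand) had 15.6 and 17.3 CPM in the controls and 22.0 and 21.8 CPM in the treated samples, from 314 to 474 reads. The treated samples lay close together and above both controls. The 95% interval of the fold change was 1.13 to 1.55 (log2 fold change 0.41 ± 0.11, edgeR adjusted p = 0.0154). The call was not made by DESeq2 (adjusted p = 0.0612), nor without sample 1 of Negative siRNA (edgeR adjusted p = 0.120) or sample 1 or 2 of Trps1 siRNA (edgeR adjusted p = 0.0567 and 0.0948).

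Markers of cells in which GATA1 is known to act were set beside that rise. Erythroid markers summed to 0.448 and 0.742 CPM in the controls and 0.392 and 0.276 CPM in the treated samples, below the level of Gata1 itself, and Hba-a2 and Hbb-bt had 0 reads in all samples. Of the 6 Sertoli markers tested, 0 rose and 1, Ctsl, a lysosomal protease also made in other cells, fell to 0.878 of the control, a call made in 7 of 12 alternative fits. Fshr, the receptor for follicle-stimulating hormone, had 0 reads, and Sox9 stood at 2.69 to 3.86 CPM. Of the 6 mast cell markers tested, Kit, a receptor that Leydig cells also make, rose 1.30-fold and 5 missed the threshold. Of these 5, the fold changes were 2.90 for Cpa3, 2.86 for Mcpt4, 1.46 for Tpsb2, 0.593 for Cma1 and 0.994 for Hdc. Cpa3, Mcpt4 and Tpsb2 were higher in both treated samples than in both controls, Cma1 was lower and Hdc overlapped. Cpa3 and Mcpt4 had an unadjusted p under 0.05 in edgeR, from 5 to 20 and 3 to 14 reads per sample. Cma1 had 13 to 29 reads. The 5 megakaryocyte markers summed to 30.3 and 34.7 CPM in the controls and 33.7 and 25.3 CPM in the treated samples, most of it Pf4, and 0 of the 3 tested passed the test or had an unadjusted p under 0.05 in edgeR. The 5 eosinophil markers summed to 1.79 to 2.35 CPM, with Epx and Prg2 at 0 reads, and 0 of the 2 tested passed or had an unadjusted p under 0.05 in edgeR. Their part in the values of Gata1 and Gata2 was not tested.

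Gata2, a factor of blood stem cells, mast cells and endothelium, was near the limit of detection. Gata2 (ENSMUSG00000015053, chromosome 6, 88193891 to 88207032, plus strand) had 17 and 16 reads in the controls and 24 and 26 reads in the treated samples, or 0.846, 0.625, 1.34 and 1.20 CPM in that order. Both treated samples lay above both controls. The fold change was 1.74, but its 95% interval ran from 0.941 to 3.21 (log2 fold change 0.80 ± 0.43, edgeR adjusted p = 0.268). Of 10 endothelial markers edgeR called 0 after adjustment, and 1, Tie1, lay under 0.05 before it. Tie1 passed in 1 of 11 alternative fits.

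The FOG genes did not pass the test. Zfpm1 (ENSMUSG00000049577, chromosome 8, 122282141 to 122337251, plus strand), the FOG gene with the higher level, had 70.9 and 70.1 CPM in the controls and 64.9 and 73.1 CPM in the treated samples. The treated samples enclosed the controls, and the fold change was 0.980 with a 95% interval of 0.887 to 1.08 (edgeR adjusted p = 0.856). Zfpm2 (ENSMUSG00000022306, chromosome 15, 40655035 to 41104592, plus strand), which encodes the FOG protein that works with GATA4 in the developing gonad and heart, had 6.96 and 6.72 CPM in the controls and 5.38 and 7.04 CPM in the treated samples. Sample 1 of Trps1 siRNA was the lowest and sample 2 the highest of the 4. With 96 to 172 reads per sample, the 95% interval of the fold change was wide, from 0.712 to 1.17 around 0.914 (edgeR adjusted p = 0.721). In control cells the level of Zfpm1 per 1000 bases of exon was 20.1 CPM, against 0.717 CPM for Zfpm2.

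**Figure D3:**
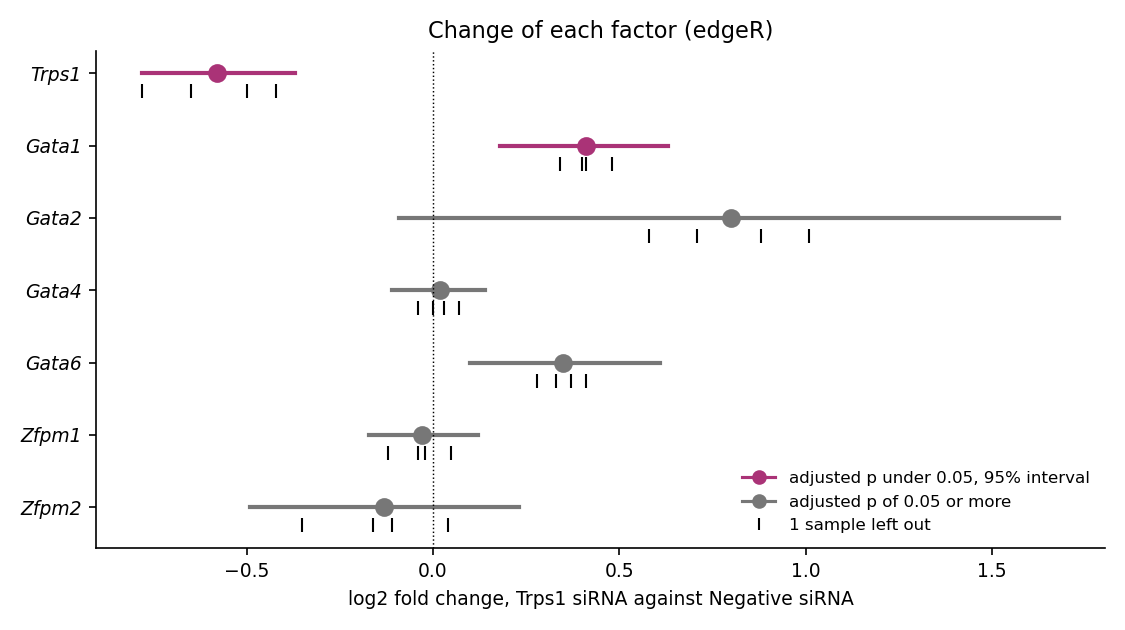
Log2 fold change of each gene with its 95% interval from edgeR, coloured where the adjusted p is under 0.05, and ticks for the fits with 1 sample left out. The intervals of Trps1 and Gata1 lie on opposite sides of 0, that of Gata6 lies above 0 before adjustment, and Gata4 and Zfpm1 have narrow intervals around 0.

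Since TRPS1 and the GATA factors share a motif, the ratio of their transcripts was taken within each sample, from levels per exon length. Trps1 to Gata4 was 0.0271 and 0.0295 in the controls and 0.0170 and 0.0202 in the treated samples. Gata4 was thus by far the more abundant of the pair in all 4 samples. Trps1 to Gata6 was 1.52 and 1.74 in the controls and 0.786 and 0.918 in the treated samples. In the control samples Trps1 was the more abundant of this pair, and in the treated samples Gata6 was. By the difference of the mean log2 ratios, Trps1 to Gata4 changed to 0.657 of the control and Trps1 to Gata6 to 0.521. With Trps1 the target of the siRNA (fold change 0.671) and Gata4 nearly level (1.01), the ratio to Gata4 restates the check of the treatment. The ratio to Gata6 holds the same fall of Trps1, beside the higher values of Gata6 (fold change 1.28). The groups did not overlap for either ratio, and the exact permutation test over samples, two-sided, gave p = 0.333 for each, the smallest p that 2 samples against 2 allow. Ratios of transcripts say nothing of protein amounts.

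**Figure D4:**
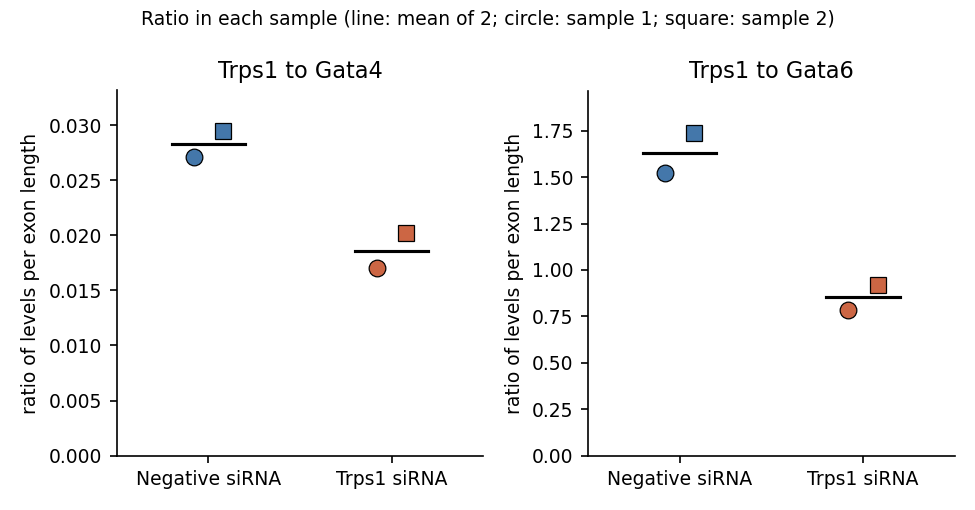
Ratio of Trps1 to Gata4 and of Trps1 to Gata6 in every sample, from levels per exon length, with a line for the mean of 2 samples. Trps1 to Gata6 lies at 1.52 and 1.74 with Negative siRNA and at 0.786 and 0.918 with Trps1 siRNA.

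The genes with the pattern most like that of Trps1 over the 4 samples were sought among 10344 genes (mean CPM of 5 or more), by the root mean square distance between log2 CPM profiles centred on each gene's mean. The nearest was Ifit3, an interferon-induced antiviral protein, at a distance of 0.0352, with 349 and 387 CPM in the control and 222 and 265 CPM in the treated samples. Srgn, a proteoglycan of secretory granules (distance 0.0479), Slc12a2, a sodium, potassium and chloride cotransporter (0.0548), Ifit3b (0.0568) and Katnal1, a microtubule-severing protein (0.0587), followed. Ifit3 and Ifit3b are close copies between which reads could be split. Like Trps1, each of the 5 was higher in control sample 2 than in control sample 1 and lower in treated sample 1 than in treated sample 2. They were picked by this profile, so the shared order is no separate result. For Gata1 the nearest were Pabpn1 (0.00657), which binds poly(A) tails, Ggct (0.0114), an enzyme of glutathione breakdown, and Cd34 (0.0198), a surface protein of progenitor and endothelial cells. Abhd10 (0.0203) and Srxn1 (0.0232), which repairs oxidised peroxiredoxins, came next. Pabpn1 and Abhd10 did not pass the test (edgeR adjusted p = 0.102 and 0.0893), and the call of Katnal1 was made in 4 of 12 alternative fits. Over 4 samples the distance mostly reads the difference between the groups, and it is a description with no test.

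Around the 7 genes, 9 lists of relatives, partners and targets held 67 tested genes, of which 11 rose and 6 fell, where 5.24% of all tested genes rose and 6.00% fell. Apart from the targets in Leydig and Sertoli cells, each list had at most 2 called genes, and 11.2% of all tested genes were called. In the relatives with a GATA-type finger, 8 of 10 genes were tested, 1 rose, 1 fell and 6 missed the threshold (median log2 fold change 0.06). Gatad2b, a subunit of the NuRD corepressor, rose from 48.8 and 51.6 CPM to 56.2 and 69.4 CPM, a 1.25-fold change (edgeR adjusted p = 0.0133), and its call was not made without sample 2 of Trps1 siRNA. Rere, a nuclear receptor coregulator, fell to 0.809 of the control, from 260 and 274 CPM to 213 and 220 CPM (edgeR adjusted p = 7.57e-04). Mta3, another NuRD subunit, had a fold change of 1.16 and Gatad2a one of 1.06, neither past the test, though Mta3 passed in 2 of 12 alternative fits. Gata3 had at most 1.23 CPM and Gata5 at most 0.046 CPM.

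TRPS1 also carries zinc fingers like those of the Ikaros family at its C-terminus. Of 4 tested Ikaros genes 1 fell and 3 missed the threshold (median log2 fold change -0.27). Ikzf1, which encodes Ikaros, a factor of lymphoid and myeloid cells, fell to 0.713 of the control, from 15.6 and 17.1 CPM to 12.9 and 10.5 CPM (edgeR adjusted p = 0.0138). Its call was not made by DESeq2, nor without sample 2 of either group. The other 3, Ikzf2, Ikzf4 and Ikzf5, had at most 2.03 CPM in any sample. Macrophage markers fell in 9 of 15 tested genes, where 6.00% of all tested genes fell. Their sum was lowest, 2141 CPM, in the treated sample with the lowest Ikzf1. Their part in the value of Ikzf1 was not tested.

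Of 7 proteins reported to bind TRPS1, 1 gene fell and 6 missed the threshold (median log2 fold change 0.05). Dynll1, a dynein light chain, fell to 0.879 of the control (edgeR adjusted p = 0.0441), a call made in 5 of 12 alternative fits. The log2 fold changes were 0.07 ± 0.06 for the ubiquitin ligase gene Rnf4, 0.18 ± 0.09 for the histone deacetylase gene Hdac4 and -0.35 ± 0.25 for Runx2, a bone transcription factor. None of these 3 passed the test. Of 16 targets of TRPS1 reported in other tissues or in this study, 7 were tested, 1 fell and 6 missed the threshold (median log2 fold change -0.06). Ihh, Wif1, Dkk4 and Sostdc1 had 0 reads in all 4 samples. The gene that fell was Ccnd1, cyclin D1, to 0.719 of the control (edgeR adjusted p = 5.33e-05). The study itself names Ccnd1 as a target, so its call in the study's own samples is not separate evidence. Apcdd1, a Wnt inhibitor, had a fold change of 0.791 (edgeR adjusted p = 0.0631, under 0.05 in 4 of 12 alternative fits) and Stat3 one of 1.05. The CtBP corepressors that FOG proteins bring in did not pass the test: Ctbp1 had a fold change of 0.986 and Ctbp2 one of 1.04, and 0 of these 2 lay under 0.05 before adjustment in edgeR or after it in DESeq2.

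**Figure D5:**
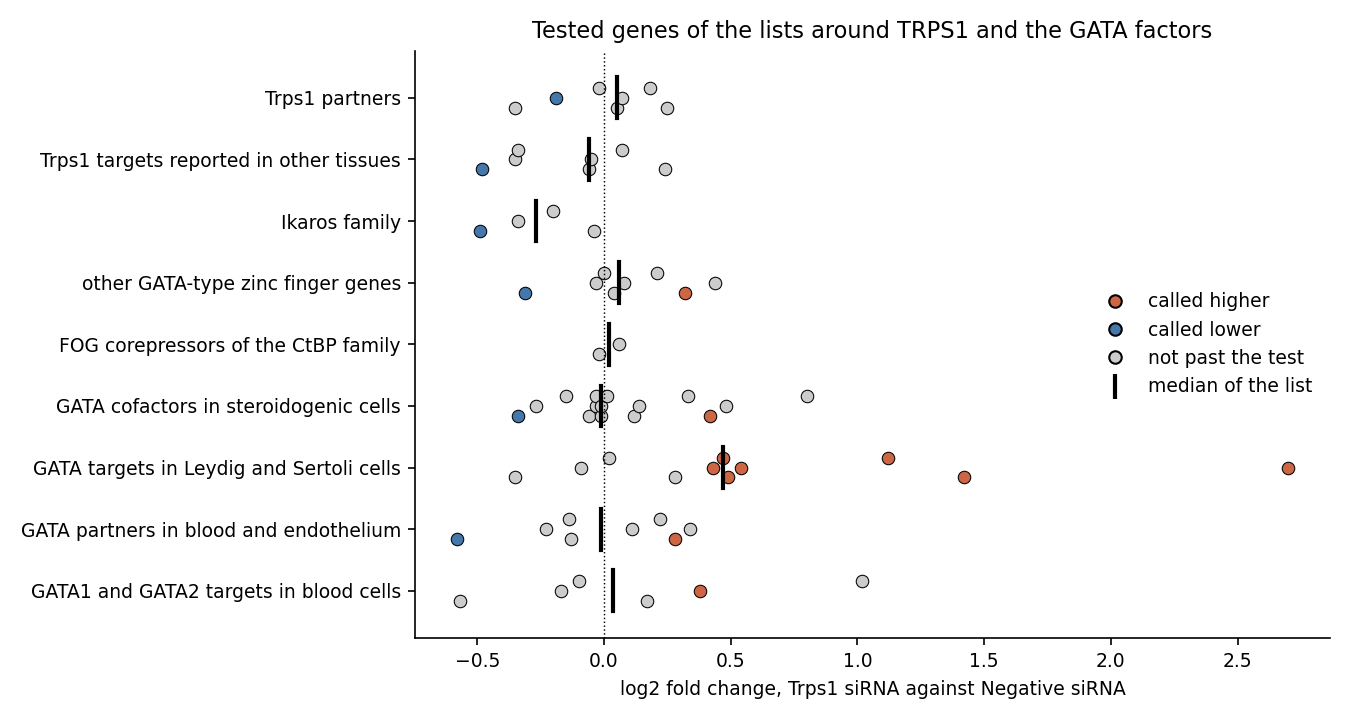
Log2 fold change of every tested gene in 9 lists around TRPS1 and the GATA factors, coloured by its call, with a line for the median of each list. The targets of GATA factors in Leydig and Sertoli cells have a median of 0.47, and the medians of the other lists lie between -0.27 and 0.06.

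Of 14 genes that GATA factors are known to regulate in Leydig and Sertoli cells 11 were tested, of which 7 rose, 0 fell and 4 missed the threshold, where 5.24% of all tested genes rose. In the same samples 9 of 15 macrophage markers fell, where 6.00% of all tested genes fell. These markers summed to 3201 and 3120 CPM in the controls and 2709 and 2141 CPM in the treated samples. The part of macrophages in the rises of the targets was not tested. The median log2 fold change of the 11 tested targets was 0.47, beside 0.00 for all tested genes. In the cells with Trps1 siRNA, Cyp17a1, the enzyme that makes androgen precursors, stood at 107 and 98.9 CPM, from 16.5 and 15.2 CPM in the controls. Hsd3b1, which makes progesterone, rose 2.67-fold, and Lhcgr, the receptor for luteinising hormone, 2.18-fold (edgeR adjusted p = 1.19e-08 and 1.70e-10). Hsd17b3, which makes testosterone, rose 1.45-fold, Cyp11a1 1.41-fold, Inha, the inhibin alpha subunit, 1.38-fold and Hsd3b6 1.35-fold. The calls of these 7 genes were made in all 12 alternative fits. Star, Insl3, Inhba and Inhbb did not pass the test, with log2 fold changes of -0.09, 0.02, 0.28 and -0.35, and Inhbb passed in 4 of 12 alternative fits. Cyp19a1, aromatase, had 0 reads in all samples. Hsd3b1 and Hsd3b6 are close copies, and how reads divide between the pair is uncertain. This list was chosen with the rise of its steroid enzymes already known.

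Of 17 factors that work with GATA factors on promoters of steroidogenic cells 15 were tested, 1 rose, 1 fell and 13 missed the threshold (median log2 fold change -0.01). Nr5a1, steroidogenic factor 1, which binds GATA4, rose 1.34-fold from 524 and 554 CPM to 713 and 733 CPM (edgeR adjusted p = 2.21e-05). Mef2d fell to 0.792 of the control, from 155 and 135 CPM to 112 and 118 CPM (edgeR adjusted p = 7.20e-04), and its call was not made without sample 1 of Negative siRNA. Nr0b2, the repressor SHP, had a fold change of 1.39 and Nr4a1, an immediate early nuclear receptor, one of 0.830, neither past the test.

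To place the motif itself, promoter windows of RefSeq (GRCm38.p6), from 250 bases before to 50 after a gene's start, were searched on both strands for the word AGATAA, for its variant AGATAG, for the word TGATAA and for its variant TGATAG. Of the 7 members, Gata1, Gata2 and Zfpm1 had a window, and 0 of these 3 held a word. Trps1, Gata4, Gata6 and Zfpm2 had no match in the table. Of the 14 targets 11 had a window and 4 held a word, namely Cyp11a1, Hsd3b1, Hsd3b6 and Inhbb. A word was found in 29.8% of all 32851 windows. That share is per window, while the targets were counted per gene. Cyp11a1 and Cyp19a1 had several windows each, so the figures are not on the same measure. Of tested genes with a window, 12.2% of 2377 with a word were called and 11.7% of those without. The window of Hsd3b1, the target with 2 words, at positions -186 and -134 from the start, is shown with the words in capitals (chr3:98859745-98860044, minus strand, 5′ to 3′). A match is a description of these letters, not a bound site.
Hsd3b1: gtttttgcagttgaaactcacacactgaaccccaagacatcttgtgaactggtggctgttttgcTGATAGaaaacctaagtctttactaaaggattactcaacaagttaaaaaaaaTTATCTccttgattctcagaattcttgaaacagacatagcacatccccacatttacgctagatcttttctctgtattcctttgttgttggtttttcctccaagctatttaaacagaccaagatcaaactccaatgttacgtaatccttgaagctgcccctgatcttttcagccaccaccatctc

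In blood cells GATA1 and GATA2 act in a complex with TAL1, LMO2 and LDB1. All 8 genes of this group were tested, 1 rose, 1 fell and 6 missed the threshold (median log2 fold change -0.01). Lmo2, the bridging protein of the complex, fell to 0.670 of the control, from 30.3 and 34.7 CPM to 24.8 and 19.0 CPM (edgeR adjusted p = 9.61e-04). Ldb1, its partner, which is made in most cells, rose 1.21-fold from 63.4 and 58.6 CPM to 74.7 and 73.2 CPM (edgeR adjusted p = 0.00809), a call not made without sample 2 of Negative siRNA. Runx1 and Fli1 had fold changes of 0.856 and 0.909, neither past the test. Lmo2, like Ikzf1, was lowest in the treated sample with the lowest macrophage sum of 2141 CPM, and the part of macrophages in its value was not tested. Of 13 targets of GATA1 and GATA2 in blood cells 6 were tested, of which Kit rose 1.30-fold, from 83.9 and 81.6 CPM to 106 and 108 CPM (edgeR adjusted p = 8.37e-05). The other 5 did not pass the test, among them Pf4, a platelet and macrophage chemokine, with a fold change of 0.890, Nfe2 with 2.02 and Epor with 0.675. Nfe2 and Epor had at most 1.06 CPM in any sample, so these folds rest on few reads.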

How the data were processed

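RNA sequencing read counts per gene were deposited by the authors as whole numbers, made with HISAT2 and featureCounts on GRCm38 (mm10), per the submitters' processing notes. The sources used here do not give versions or the strand setting. The authors' deposited comparison holds a mean normalised signal per group, log2 fold changes, p-values and adjusted p-values, from a test that the sources used here do not name. Of 55812 features 55141 matched a symbol in GENCODE M21. Library totals limited the precision of genes with few reads.

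The fit was edgeR 4.0.16 (R 4.3.3) with TMM, filterByExpr (minimum count 10), glmQLFit with robust estimation and glmQLFTest over the 4 samples, with the group only. Benjamini-Hochberg adjustment ran over 14701 genes, with a threshold of 0.05. Standard errors were the log2 fold change over the square root of F, and 95% intervals used the fit's degrees of freedom. Alternatives were RLE factors, library totals, 2 other filters, DESeq2 1.42.0, limma 3.58.1 voom, no robust estimation, the replicate block and each sample left out. The scripts were tested on simulated data. Zinc finger sequences came from GENCODE M21 coding sequences. A chi-square per gene of 7.08 and 4.34 between replicates exceeded sampling noise.

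The members and gene lists were chosen with earlier results of these data known. Named were all 7 members, of each list the 4 tested genes with the smallest p (all where fewer were tested), and for called members the 5 genes nearest in profile (log2 of CPM + 0.5), clone and pseudogene names left out. Named outside that rule, after their values were seen, were the other called genes of the Leydig and Sertoli target list, the genes of that list that did not pass the test, Gata3, genes at 0 or under the filter, and the markers.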

Additional observations from a re-analysis of the deposited data

How the results depend on the processing

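The log2 fold change of Trps1 kept its direction and its call in all 12 alternative fits (-0.78 to -0.42 with a sample left out). That of Gata1 kept its direction in 12 of 12 and its call in 8, and it was 0.41 with DESeq2, past no threshold there, and 0.34 to 0.48 with a sample left out. With a sample left out, the values crossed 0 for Gata4 (-0.04 to 0.07), Zfpm1 (-0.12 to 0.05) and Zfpm2 (-0.35 to 0.04). Gata2 was not tested at a mean of at least 5 CPM and had no adjusted p in DESeq2. DESeq2 called 991 genes, 438 higher and 553 lower, in place of 1652, 770 and 882. With a sample left out, 871 to 1675 genes were called, 395 to 748 higher and 476 to 927 lower, lowest without sample 2 of Trps1 siRNA. Called list genes numbered 14 to 20 in those fits. The lone sample left in a group was then assumed to vary like the others.

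No label says whether samples of the same number belong together. The deviations of same-numbered samples had a correlation of 0.0729 across 10763 genes, which are not independent replicates. This compares only the difference within each group of 2 samples, so it cannot show whether the samples were paired. With the replicate block 2285 genes were called, 1073 higher and 1212 lower, and Gata6, at 0.35, reached an adjusted p of 0.0496. The block changed no other member's call. The ratio of Trps1 to Gata4 changed by -0.67 and -0.54 (log2) within number 1 and number 2, and that to Gata6 by -0.96 and -0.92.

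With the longest transcript as the length, control levels were 122 CPM per 1000 bases for Gata4, 20.8 for Zfpm1, 8.66 for Gata1, 4.07 for Trps1, 3.16 for Gata6, 1.18 for Zfpm2 and 0.206 for Gata2, because the length is shorter. Among named list and marker genes not past the test and followed in the alternative fits, these crossed 0 with a sample left out: Ctbp1 (-0.10 to 0.06), Epor (-1.56 to 0.08), Fli1 (-0.35 to 0.06), Ikzf2 (-0.53 to 0.08), Ikzf4 (-0.60 to 0.40), Ikzf5 (-0.78 to 0.40), Pf4 (-0.40 to 0.04), Insl3 (-0.04 to 0.07), Aard (-0.01 to 0.16), Hdc (-0.07 to 0.06) and Wt1 (-0.13 to 0.15). The Leydig markers Ptgds, Vcam1 and Hsd11b1 were not followed in those fits. With library totals alone Hdc was at 0.00 and Wt1 at 0.01. Nr0b2 and Pf4 each passed in 1 of 12 fits, and Tie1 in 1 of 11. The cause of these changes was not tested.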

Other observations

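Ratios among the GATA factors themselves were taken after the values were seen, from levels per exon length. Gata6 to Gata4 was 0.0177 and 0.0169 in the controls and 0.0217 and 0.0220 in the treated samples, 1.26 times the control. Gata1 to Gata4 was 0.0609 and 0.0664 in the controls and 0.0871 and 0.0803 in the treated samples, 1.32 times the control. Neither ratio overlapped between the groups, and the exact permutation test gave p = 0.333 for both, the smallest p possible here. Gata4 thus remained the most abundant of these transcripts in all 4 samples, while the ratios of Gata6 and Gata1 to it were higher in the treated ones. With Gata4 nearly level (fold change 1.01), these ratios mostly restate the fold changes of Gata6 (1.28) and Gata1 (1.33). Gata6 missed the threshold in the main fit, and the call of Gata1 was kept in 8 of 12 alternative fits.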
